A study of Homo sapiens with 19 samples.

Results

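The 6 genes described here are the MEF2 transcription factors MEF2A, MEF2C and MEF2D and the calcium/calmodulin-dependent kinase II genes CAMK2D, CAMK2G and CAMK2B. They were chosen by name, out of 22760 genes with junction reads, and were followed through the 217 introns that GENCODE release 29 annotates for them, of 361515 in all. Reads were found in 132 of these introns. Each was read in 19 RNA-seq libraries as the number of reads that span it, so that a gene's level is its reads over annotated introns per 1000000 such reads (CPM) and an exon's use is the share of junction reads that join it.

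The study knocked down RBFOX2, a splicing regulator, in HUES66 human embryonic stem cells with RNA-targeting Cas13d, either all of its transcripts or isoforms that the labels name N-short and N-long. All libraries of that experiment, controls included, received doxycycline at 1 ug/ml. There were 3 control libraries (labelled WT), 3 of the total, 4 of the N-short and 4 of the N-long knockdown, in 4 sets. The first 24 hr set holds 1 library of each knockdown and no control, the second 24 hr set a control, N-short and N-long library, and the 48 and 96 hr sets 1 library of each of the 4 groups. The other 5 libraries carry no treatment label: wild-type A375 melanoma cells as total, nuclear and cytoplasmic RNA, wild-type HEK293 embryonic kidney cells and wild-type HUES66, with 1 library each. The library name of the last holds a word that those of the controls also carry, so whether it is an untreated culture is not certain. By the labels, the 48 and 96 hr sets share a library series, and each 24 hr set belongs to another. Wild-type HUES66 shares the series of the first 24 hr set and HEK293 that of the second, while A375 has its own. Series cannot be told apart from cell line for A375, or where HEK293 is set against wild-type HUES66. HEK293 and the doxycycline-treated HUES66 libraries of the second 24 hr set are of 1 series. Nor can series be told apart from time between 24 hr and the later sets. The labels do not say whether libraries of a group came from separate cultures, so the p-values measure only the spread between these libraries, which may be technical.

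MEF2 factors bind DNA through a MADS box and a MEF2 domain, and their transcripts choose between mutually exclusive alpha exons just after that domain and may include a short beta exon in the region that activates transcription. The CAMK2 kinases join a kinase domain to an association domain through a variable linker, built from short exons that alternative splicing combines, and some of these exons direct the kinase to the nucleus. Calcium/calmodulin-dependent kinases phosphorylate class IIa histone deacetylases and so release MEF2 factors from repression, and RBFOX proteins, which bind a short motif in the introns beside exons, are known to regulate exons of this kind in muscle and brain.

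The alpha exons of MEF2D are shown as an example of such a mutually exclusive pair. Sequences are the coding strand of GRCh38 as GENCODE release 29 transcripts give it, and capitals mark the bases that differ after alignment. The MEF2D exons (chr1:156480834-156480971 and chr1:156480643-156480777, minus strand) share 75 bases, 55.6% of the shorter exon. Both lie within coding sequence.
MEF2D upstream alpha exon: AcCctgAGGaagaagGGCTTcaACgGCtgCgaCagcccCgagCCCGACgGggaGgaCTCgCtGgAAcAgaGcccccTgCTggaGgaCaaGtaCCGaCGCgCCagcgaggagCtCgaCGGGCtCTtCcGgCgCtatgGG
MEF2D downstream alpha exon: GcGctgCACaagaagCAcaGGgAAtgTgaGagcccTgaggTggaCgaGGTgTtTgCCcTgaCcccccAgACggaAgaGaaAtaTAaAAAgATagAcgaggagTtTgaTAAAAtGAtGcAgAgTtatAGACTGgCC

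The linker exons of the kinases are shown for the choice that moved in CAMK2G and for the related 33-nt exons, of which the one of CAMK2D is known for its nuclear localization signal. In the CAMK2G 69-nt exon (chr10:73825279-73825347, minus strand) capitals mark the bases that a 27-nt form of the exon lacks. In the 33-nt exons of CAMK2G (chr10:73828089-73828121, minus strand) and CAMK2D (chr4:113508236-113508268, minus strand), which share 26 bases, capitals mark the bases that differ. The beta exon of MEF2D (chr1:156476494-156476514, minus strand) has no capitals. These exons are coding as well.
CAMK2G 69-nt exon: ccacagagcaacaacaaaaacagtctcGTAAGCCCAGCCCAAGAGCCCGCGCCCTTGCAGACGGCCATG
CAMK2G 33-nt exon: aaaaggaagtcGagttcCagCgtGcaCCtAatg
CAMK2D 33-nt exon: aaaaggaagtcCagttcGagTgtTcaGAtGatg
MEF2D beta exon: actgaggaccatttagatctg

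The libraries held 6499183 to 27937149 junction reads, with a median of 13138790, and 96.7% to 98.3% of them fell on annotated introns. RBFOX2, read first as a check of the knockdown, stood at 133, 129 and 126 CPM in the 24, 48 and 96 hr controls. In the order of the sets it had 51.1, 83.3 and 80.2 CPM in the total knockdown, 115, 123, 128 and 113 CPM in the N-short knockdown and 78.0, 76.7, 92.7 and 85.0 CPM in the N-long knockdown. All total and N-long knockdown libraries lay below all controls, and the N-short libraries overlapped the controls. By edgeR's quasi-likelihood test with Benjamini-Hochberg adjustment, RBFOX2 fell by 0.82 on the log2 scale in the total knockdown (SE 0.0794, adjusted p = 8.65e-09) and by 0.57 in the N-long knockdown (SE 0.0707, adjusted p = 2.74e-05). The N-long call was lost without the term for library set (-0.61, adjusted p = 0.46) and in DESeq2 (-0.58, adjusted p = 0.0683). In the N-short knockdown the log2 difference was -0.06 (95% interval -0.20 to 0.08, edgeR adjusted p = 0.999), so reads of the whole gene showed no called loss there. The other detected RBFOX genes were RBFOX3, at 16.5 to 24.9 CPM, and RBFOX1, at 0.548 to 2.21 CPM over the 14 doxycycline-treated libraries. Stem cell markers summed to 1883 to 2476 CPM in these 14 libraries, with SOX2, whose gene has no intron, at 0, and to 0.778 to 1.81 CPM in the A375 and HEK293 libraries.

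Among the MEF2 factors, HUES66 cells expressed MEF2A and MEF2D and little MEF2C. MEF2A (ENSG00000068305.17, chr15:99565417-99716466, plus strand) ranged from 22.2 to 34.0 CPM in the 14 doxycycline-treated libraries and MEF2D (ENSG00000116604.17, chr1:156463727-156500828, minus strand) from 12.8 to 18.1 CPM. MEF2C (ENSG00000081189.15, chr5:88717117-88904257, minus strand), the family member best known from heart, muscle and neurons, had 0 to 13 reads per library there, a median of 0.486 CPM. Of the kinases, CAMK2G (ENSG00000148660.20, chr10:73812501-73874591, minus strand) had 43.6 to 59.5 CPM. CAMK2D (ENSG00000145349.16, chr4:113451032-113761927, minus strand), a main form of heart and many other tissues, had 21.6 to 50.4 CPM. CAMK2B (ENSG00000058404.19, chr7:44217150-44334577, minus strand), known from brain, had 0 to 5 reads per library.

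Because genes differ in their number of introns, levels between genes were compared as the CPM of the median intron of the transcript with most reads. On that scale the medians over the 14 libraries were 2.60 for CAMK2G (1.99 to 3.01), 2.31 for MEF2A (1.79 to 2.86), 1.56 for CAMK2D (1.23 to 3.06) and 1.43 for MEF2D (1.03 to 1.75). MEF2C had a median of 0 (0 to 0.110). Each of the 4 expressed genes overlapped its neighbour in this order, and none of these 4 overlapped MEF2C.

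**Figure D1:**
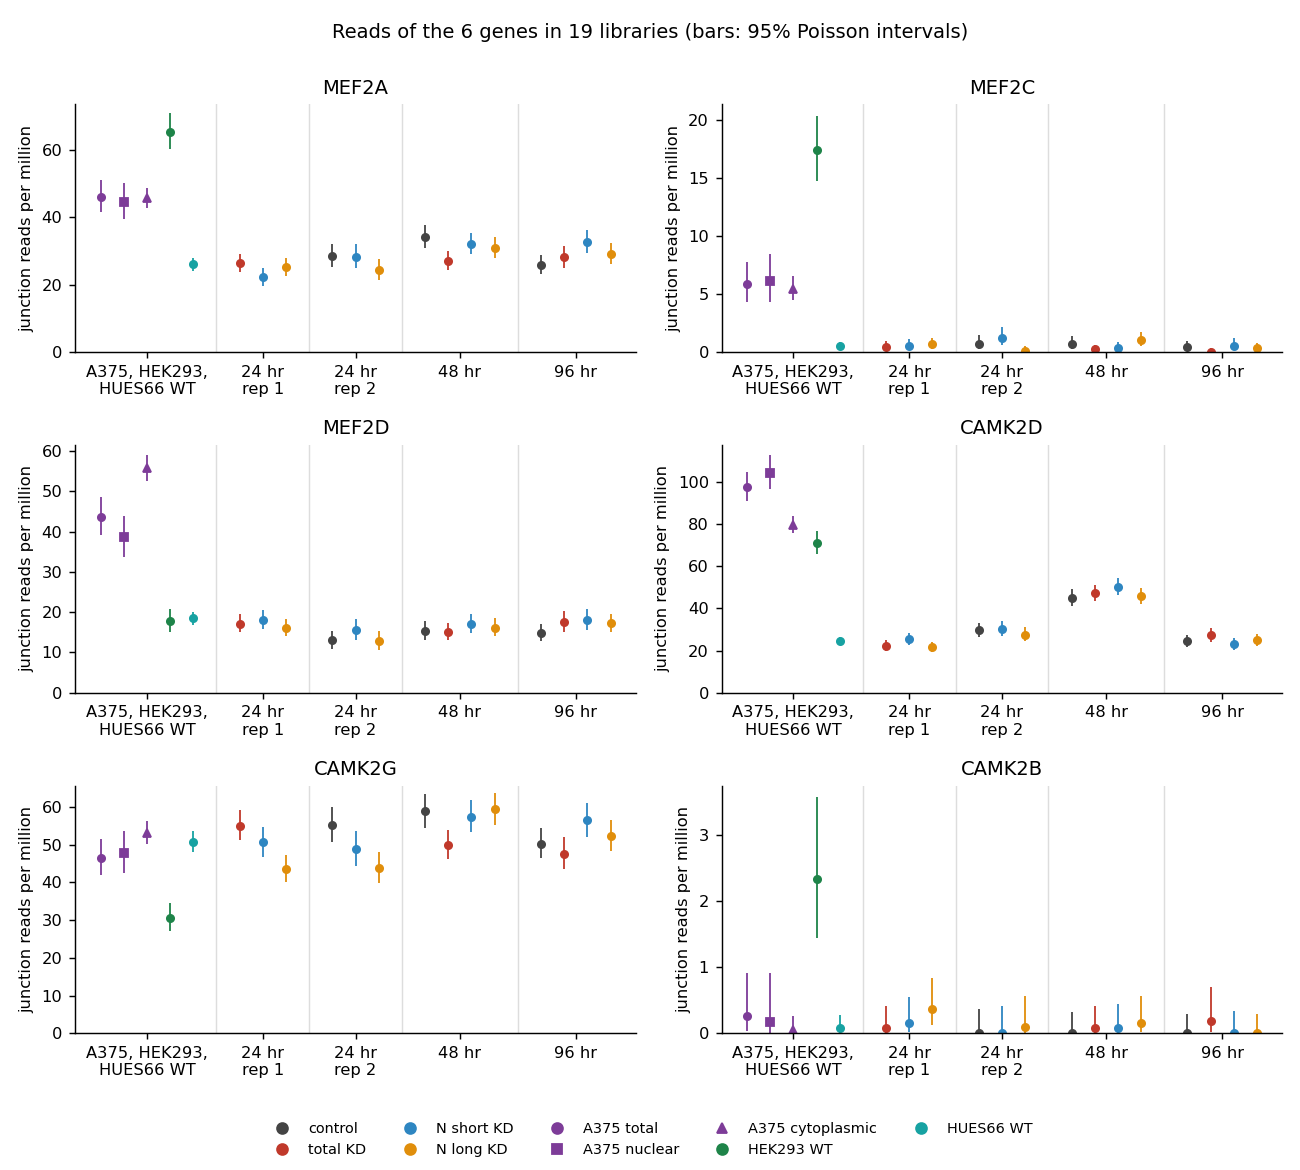
Junction reads per 1000000 (vertical axis, linear, from 0) of the 6 genes in each of the 19 libraries, grouped along the horizontal axis by library set and coloured by group, with exact 95% Poisson intervals that cover counting error only. CAMK2D stands at 45.1 to 50.4 CPM in the 48 hr set and at 30.3 CPM or less in the other doxycycline-treated libraries, while MEF2C and CAMK2B are near 0 in all HUES66 libraries.

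Knockdown of RBFOX2, total or of either isoform, left the gene reads of the MEF2 and CAMK2 genes without a called difference. MEF2A had 28.4, 34.0 and 25.8 CPM in the controls, 26.3, 27 and 28.2 in the total knockdown, 22.2, 28.3, 32.1 and 32.6 in the N-short knockdown and 25.1, 24.4, 30.9 and 29.1 in the N-long knockdown. The 4 groups overlapped. MEF2D had 13.0, 15.3 and 14.8 CPM in the controls, 17.1, 15.2 and 17.6 in the total knockdown, 18.1, 15.5, 17 and 18.1 in the N-short knockdown and 16.1, 12.8, 16.1 and 17.2 in the N-long knockdown. The N-short libraries of MEF2D were all above the controls, and the other groups overlapped them.

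For the kinases, CAMK2G had 55.3, 58.9 and 50.2 CPM in the controls, 55.1, 49.9 and 47.7 in the total knockdown, 50.6, 48.8, 57.4 and 56.5 in the N-short knockdown and 43.6, 43.9, 59.5 and 52.3 in the N-long knockdown. CAMK2D had 29.7, 45.1 and 24.5 CPM in the controls, 22.2, 47.3 and 27.3 in the total knockdown, 25.5, 30.3, 50.4 and 23.0 in the N-short knockdown and 21.6, 27.6, 45.7 and 25.0 in the N-long knockdown. All groups of both kinases overlapped, and the high CAMK2D value of each group was that of the 48 hr library.

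MEF2C and CAMK2B were too low to be tested, and none of the other 4 genes passed an adjusted p of 0.05 in any of the 4 knockdown comparisons by edgeR's quasi-likelihood test with Benjamini-Hochberg adjustment over 13393 genes. Over all genes tested, 2.26% passed for the total knockdown, 0.00747% for N-short, 0.0224% for N-long and 0.0149% for N-long against N-short, so that 0 of 4 is near the background in each. At an unadjusted p under 0.05 the counts of the 4 genes were 0, 1, 0 and 0, and DESeq2 also called 0 in each. The median log2 difference of the 4 genes was -0.02, 0.04, -0.03 and -0.09 in these comparisons, against 0.00 over all genes in each. The 12 log2 differences from control lay between -0.13 and 0.22, and their 95% intervals between -0.29 and 0.42, that is, between 0.816- and 1.34-fold. The highest was MEF2D in the N-short knockdown (0.22, SE 0.0962, unadjusted p = 0.0259, edgeR adjusted p = 0.999).

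**Figure D2:**
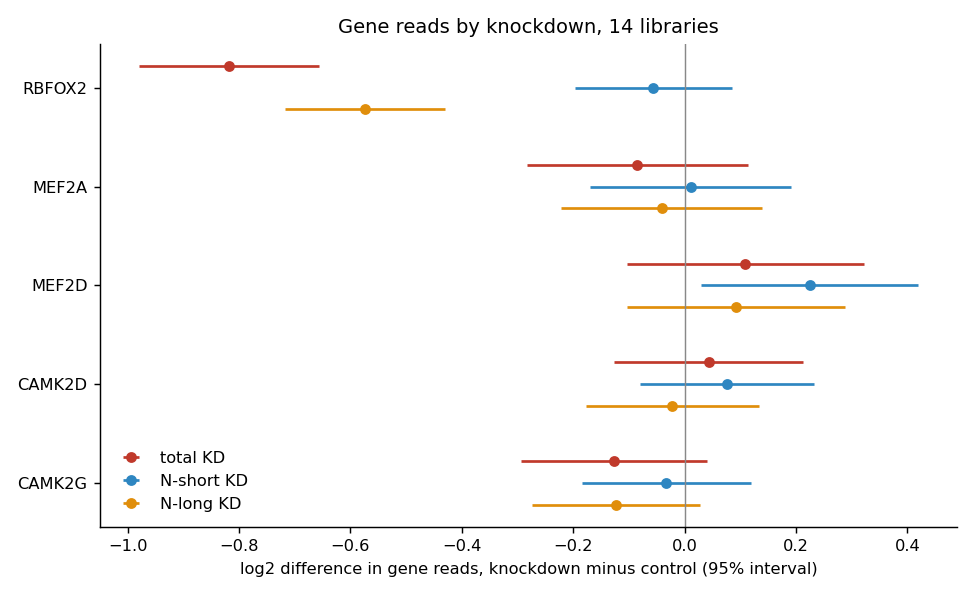
Log2 difference in gene reads between each knockdown and control (horizontal axis) with its 95% interval from the edgeR fit of 14 libraries, for RBFOX2 and the 4 tested genes, 1 point per knockdown. RBFOX2 lies at -0.82 in the total and -0.57 in the N-long knockdown, and the 12 points of the MEF2 and CAMK2 genes lie between -0.13 and 0.22.

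The exons of the family likewise showed no called difference by knockdown, which does not show that none changed. In simulated data, a rise of 2 in log2 odds in the total knockdown was called for 27.5% of the changed cassette exons. For exon pairs the share was 50%. Changed features were drawn from all those tested, with a fixed spread and no other differences between sets, and falls were not simulated. These shares are therefore not those of the member exons themselves. Of 33 annotated cassette exons in the 6 genes, 8 had enough reads to be tested (6 of CAMK2G and 1 each of MEF2A and MEF2D), and 0 were called in each of the 4 knockdown comparisons by edgeR with Benjamini-Hochberg adjustment over 6855 exons. The share called over all exons was 1.28% for the total knockdown, 0.0146% for N-short, 0.467% for N-long and 0.35% for N-long against N-short. At an unadjusted p under 0.05 the counts were 0, 0, 3 and 0, and limma called 0 in each. The 8 exons had a median log2 difference in the odds of inclusion of -0.14, 0.25, 0.25 and -0.10, against 0.06, 0.01, -0.01 and -0.02 over all exons.

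Of 7 pairs of mutually exclusive exons 2, both of MEF2A, could be tested, and 0 were called by edgeR in each knockdown comparison, with 0 at an unadjusted p under 0.05 and 0 by limma. Over 266 pairs the shares called were 1.88% for the total knockdown, 0% for N-short, 0.376% for N-long and 0% for N-long against N-short. Of 93 choices between junctions at a shared splice site 21 could be tested, and 0 were called by edgeR in each, against 0.767%, 0.016%, 0.316% and 0.244% of 25036 choices. At an unadjusted p under 0.05 there were 0, 1, 3 and 0 of the 21, all in CAMK2G, and limma called 0. The median log2 differences of the members were -0.47, -0.37, -0.52 and -0.16 for the 2 pairs, against -0.03, -0.03, -0.01 and 0.02 over all pairs. The alpha pair, described next, lay above these medians of 2 in each knockdown against control, and the other pair below them. For the 21 choices the medians were -0.18, 0.03, 0.05 and 0.00, against 0.00 over all choices.

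The pair of MEF2A alpha exons was read by 34 to 117 reads per library. The downstream exon took 35.3%, 22.0% and 32.8% of the reads in the 24, 48 and 96 hr controls, 34.1%, 23.2% and 42.9% in the total knockdown, 33.3%, 34.3%, 24.1% and 33.3% in the N-short knockdown and 26.3%, 26.3%, 16.3% and 36.0% in the N-long knockdown. All 4 groups overlapped, and the lowest library of each was that of 48 hr. Against control, the log2 odds of the downstream exon differed by 0.30 in the total knockdown (95% interval -0.33 to 0.93), by 0.09 in the N-short (-0.48 to 0.66) and by -0.24 in the N-long knockdown (-0.83 to 0.35), none of them called by edgeR. The sign turned with the downstream junctions alone for total and N-short and with the upstream junctions alone for N-long.

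Between the 48 and the 96 hr sets, the choice between the MEF2A alpha exons differed. The downstream exon took 22.0%, 23.2%, 24.1% and 16.3% of the reads in the 48 hr control, total, N-short and N-long libraries, a mean of 21.4% ± 3.51 (SD, n = 4). In the same groups at 96 hr it took 32.8%, 42.9%, 33.3% and 36.0%, a mean of 36.2% ± 4.63 (SD, n = 4). All 4 libraries of 96 hr lay above all 4 of 48 hr, and the 6 libraries of the 24 hr sets, at 26.3% to 35.3%, lay above those of 48 hr. In edgeR the log2 odds rose by 1.03 (SE 0.253, 95% interval 0.53 to 1.53, Benjamini-Hochberg adjusted p = 0.0152), higher in 4 of 4 groups. Of the 2 MEF2A pairs tested 1 was called and both had an unadjusted p under 0.05, where 9.02% of all pairs were called, and limma called 1. The median log2 difference of the 2 pairs was 1.98, against -0.04 over all pairs. The alpha pair lay below that median and the other pair, which edgeR did not call, above it. The call of the alpha pair was lost (lowest log2 difference 0.90, highest adjusted p 0.0937) when any of the total or N-long libraries of 48 or 96 hr was left out, and with the upstream junctions alone.

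**Figure D3:**
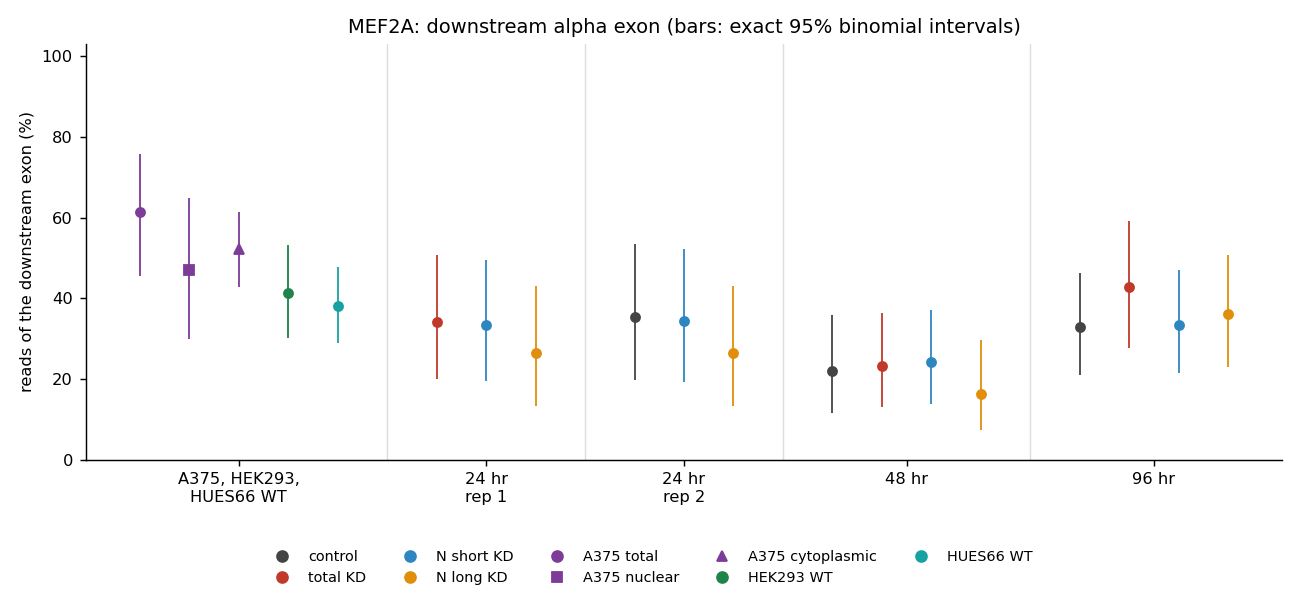
Share of MEF2A alpha-exon reads that join the downstream exon (vertical axis, percent) in each of 19 libraries, grouped by library set and coloured by group, with exact 95% binomial intervals that cover counting error only. The 4 libraries of 48 hr sit at 16.3% to 24.1%, below the 4 of 96 hr at 32.8% to 42.9%.

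The second splicing difference between these sets was in the CAMK2G linker. Inclusion of the 69-nt exon was 54.8%, 57.1%, 80.0% and 63.9% in the control, total, N-short and N-long libraries of 48 hr and 71.0%, 82.6%, 75.0% and 87.9% in those of 96 hr. The sets overlapped, since the N-short library of 48 hr was above the control and N-short libraries of 96 hr. As a cassette exon its log2 odds differed by 1.11 (SE 0.441, edgeR adjusted p = 0.0826), which did not pass, and 0 of 8 cassette exons were called, where 16.4% of all exons were; 1 of the 8 had an unadjusted p under 0.05 and limma called 0.

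Read at the acceptor downstream of the exon, the junction from the 69-nt form took 44.4%, 46.9%, 60.7% and 35.7% of the site's reads at 48 hr and 61.1%, 76.2%, 65.8% and 89.7% at 96 hr. Here the sets did not overlap. The log2 odds rose by 1.59 (SE 0.479, edgeR adjusted p = 0.0114), higher in 4 of 4 groups. Of 21 choices tested 2 were called by edgeR, where 12.9% of all choices were, 6 had an unadjusted p under 0.05, and limma called 1. The other called choice was that of the MEF2A upstream alpha exon at its downstream acceptor, which fell by 1.16 (SE 0.369, edgeR adjusted p = 0.0180) and uses reads of the pair described above. Without the N-long library of 48 hr the CAMK2G difference was 1.16 and without that of 96 hr 1.08, both no longer called. Limma did not call the CAMK2G choice either, and its single call was the MEF2A choice.

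By knockdown, the same CAMK2G exon was included at 69.2%, 54.8% and 71.0% in the controls, 80.0%, 57.1% and 82.6% in the total knockdown, 94.3%, 75.0%, 80.0% and 75.0% in the N-short knockdown and 89.7%, 93.3%, 63.9% and 87.9% in the N-long knockdown. The 4 N-short libraries were above the 3 controls, and the total and N-long groups overlapped them. Reads joining the exon at either end numbered 28 to 66 per library. Within the sets that hold a control, each of the 8 knockdown libraries was above the control of its set, which the knockdowns of a set share. The log2 odds differed from control by 0.25 (95% interval -0.86 to 1.36), 0.99 (-0.05 to 2.03) and 1.06 (0.04 to 2.09) for total, N-short and N-long, with edgeR adjusted p-values of 0.984, 1.00 and 0.906. In the authors' deposited tables, which list control minus knockdown, the events of this exon had inclusion differences of -0.244 to 0.242 and none passed an adjusted p of 0.05.

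**Figure D4:**
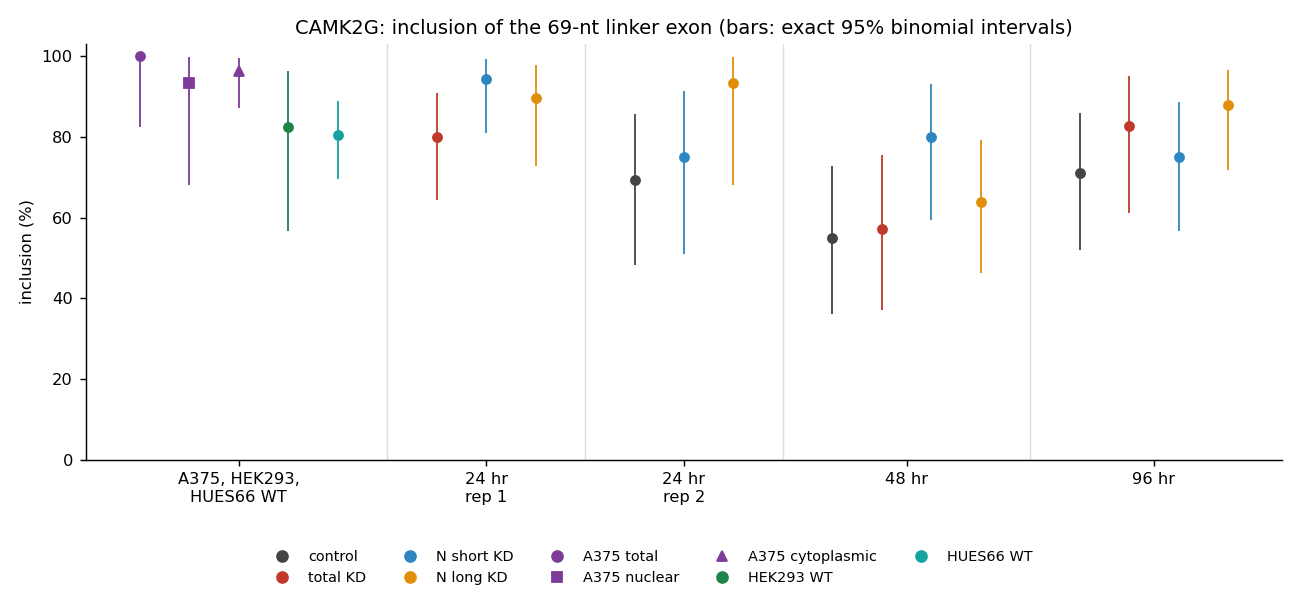
Inclusion of the CAMK2G 69-nt linker exon (vertical axis, percent) in each of 19 libraries, grouped by library set and coloured by group, with exact 95% binomial intervals that cover counting error only. Inclusion is 54.8% to 80.0% at 48 hr, 71.0% to 87.9% at 96 hr and 93.3% to 100% in the A375 libraries.

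Of the other linker exons, the 33-nt and 63-nt exons of CAMK2G and the 33-nt and 42-nt exons of CAMK2D were used little. The CAMK2G 33-nt exon was included in 1 of 21, 1 of 19 and 2 of 23 reads of the controls and in 0 of 111 reads of the 4 N-long libraries, which allows a share of up to 2.7%. The other knockdowns were low as well, at 1 of 31, 0 of 17 and 0 of 22 reads in the total and 0 of 40, 0 of 15, 1 of 23 and 1 of 24 reads in the N-short libraries. The log2 difference between N-long and control was -3.91 (SE 1.50, unadjusted p = 0.0135, edgeR adjusted p = 0.730), so it did not pass, and 4 reads carry it. The CAMK2G 63-nt exon was included at 0% to 6.06% (median 3.13%) and the CAMK2G 114-nt exon at 7.69% to 34.5% (median 14.1%) over the 14 doxycycline-treated libraries. In CAMK2D, no read joined the 33-nt exon or the 42-nt exon in any of the 19 libraries against 739 reads that passed over each, which allows a share of up to 0.406%. An acceptor of the CAMK2D 38-nt exon that lies 3 nt further in took 11 reads against 352 of the outer acceptor in these 14 libraries, 0% to 9.52% each.

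The MEF2 factors other than MEF2A made near-uniform choices in HUES66. MEF2D joined its upstream alpha exon in 342 reads and its downstream alpha exon in 1 read over the 14 doxycycline-treated libraries. The MEF2D beta exon was joined in 3 reads against 276 that skipped it, and the MEF2A 24-nt exon, the counterpart in MEF2A, in 5 against 368. MEF2C gave 14 reads of its upstream and 0 of its downstream alpha exon there. Its 24-nt exon had 0 reads against 11, and its 27-nt exon 0 against 10, so that few reads limit any statement on MEF2C.

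CAMK2D was the gene of the family whose reads differed between the 48 and 96 hr sets. It had 45.1, 47.3, 50.4 and 45.7 CPM in the control, total, N-short and N-long libraries of 48 hr, a mean of 47.1 ± 2.36 (SD, n = 4), and 24.5, 27.3, 23.0 and 25.0 CPM in those of 96 hr, a mean of 24.9 ± 1.79 (SD, n = 4). The sets did not overlap, and the 24 hr libraries, at 21.6 to 30.3 CPM, were below those of 48 hr. CAMK2D fell by 0.86 on the log2 scale (SE 0.0673, 95% interval -1.0 to -0.72, edgeR adjusted p = 4.89e-13), lower in 4 of 4 groups. MEF2A (-0.04), MEF2D (0.15, adjusted p = 0.135) and CAMK2G (-0.07) did not pass the same edgeR test. So 1 of 4 genes was called, where 59.5% of all genes were, a share below the background, and the median of the 4 was -0.06 against -0.01 over all genes.

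The 2 sets are 1 time point each, so time and any other difference between them cannot be told apart. Muscle markers summed to 35.9 to 38.8 CPM at 48 hr and 15.2 to 18.5 CPM at 96 hr, carried by TNNT2 and ACTC1, with MYOG and MYOD1 at 0. Melanocyte-lineage markers summed to 69.1 to 73.6 and 38.7 to 46.3 CPM, of which PMEL alone gave 66.4 to 71.8 and 36.8 to 44.6 CPM. MITF had 0.726 to 1.85 and 0.769 to 1.57 CPM and SOX10 0.850 to 1.65 and 0.400 to 1.06 CPM, with MLANA and TYR at 0. The A375 total library had SOX10 at 107 CPM and MITF at 41.6 CPM, but PMEL at 0.507 CPM. Stem cell markers summed to 2358 to 2476 and 2234 to 2385 CPM, neuronal markers to 69 to 77 and 76.8 to 82.7 CPM, and mesoderm and endoderm markers to at most 1.04 CPM. The part of other cells in the CAMK2D, MEF2A and CAMK2G differences was not tested, and fewer cells of a type and less RNA per cell cannot be told apart in bulk RNA.

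The signalling genes around the family were counted from lists. Of 21 genes of calcium and calmodulin signalling 20 were tested and 6 were higher and 5 lower at 96 than at 48 hr by edgeR at an adjusted p of 0.05, with a median log2 difference of -0.13. Over all genes tested 59.5% were called in this comparison, with a median of -0.01, so these counts stand near the background. Subunits of the phosphatase calcineurin were among the higher: PPP3CA, a catalytic subunit, rose from 85.9 to 93.4 CPM at 48 hr to 125 to 131 CPM at 96 hr (log2 0.58, SE 0.0413), and PPP3R1, a regulatory subunit, rose by 0.44. NFATC1, a transcription factor that calcineurin activates, fell by 1.28 on the log2 scale (4.85 to 6.26 against 1.54 to 2.77 CPM), and its relative NFATC4 fell by 0.47. The kinase genes CAMKK1 and CAMK1D fell by 0.39 and 0.35.

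Of 17 MEF2 partners 15 were tested, 6 were higher and 4 lower, where 59.5% of all genes were called, and the median log2 difference was 0.03. The coactivators NCOA2, CREBBP and EP300 rose by 0.53, 0.43 and 0.33 on the log2 scale, and the kinases MAPK7 and SIK3 by 0.51 and 0.42. The class IIa deacetylases went in different directions: HDAC9 and HDAC5 fell by 0.62 and 0.42, HDAC7 rose by 0.11 (adjusted p = 0.0144 by edgeR), and HDAC4 did not pass (-0.06, adjusted p = 0.466). CABIN1, a repressor of MEF2, fell by 0.31 and the kinase PRKD2 by 0.15.

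Of 13 genes known as MEF2 targets 6 were tested, and 1 was higher and 3 lower, where 59.5% of all genes were called, with a median of -0.80. MYOM1, a sarcomere protein, fell from 2.26 to 3.68 CPM at 48 hr to 0.479 to 1.15 CPM at 96 hr. PPARGC1A, a coactivator of genes of mitochondria, fell by 1.51 on the log2 scale, and NR4A1, an immediate early nuclear receptor, fell from 6.33 to 8.24 CPM to 2.62 to 4.04 CPM. ARC, an immediate early gene of neurons, rose by 0.66 (adjusted p = 0.0411 by edgeR).

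Of 14 regulators of tissue-specific splicing all were tested, 7 were higher and 1 lower, with a median of 0.20. MBNL3 rose by 0.98 on the log2 scale, CELF2 by 0.63, SRSF1 by 0.56, MBNL1 by 0.43, PTBP1 by 0.35, PTBP2 by 0.26 and CELF1 by 0.21, and NOVA2 fell by 0.47. All medians compare with -0.01 over all genes and all counts with the 59.5% called there.

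In the knockdowns, 0 genes of the partner, calcium and target lists were called by edgeR. In the splicing list RBFOX2 was called in the total and N-long knockdowns, and PTBP2, a neuronal relative of PTBP1, fell by 0.21 on the log2 scale in the total knockdown (SE 0.0523, edgeR adjusted p = 0.0198). PTBP2 had 102 to 130 CPM in the total knockdown and 122 to 145 CPM in the controls, which overlapped when sets were pooled. Within the 48 and 96 hr sets the total knockdown was below the control. PTBP2 was also lower by 0.21 in the N-long knockdown (edgeR adjusted p = 0.152) and by 0.22 in N-long against N-short (edgeR adjusted p = 0.0576), neither of them called. Of 7 stem cell markers 6 were tested and 1 was called in the total knockdown, where 2.26% of all genes were. It was TDGF1, higher by 0.17 (SE 0.0423, edgeR adjusted p = 0.0263), at 238 to 275 CPM against 165 to 235 CPM in the controls. No other tested marker was called by knockdown.

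Between the cell lines, several of the genes differed in level. With 1 library per line there is no test, and the intervals of ratios cover counting error only, since reads amplified by PCR without molecular identifiers are not independent molecules. CAMK2D had 97.6 CPM in A375, 71.1 in HEK293 and 24.7 in wild-type HUES66, a ratio to HUES66 of 3.96 (3.56 to 4.40) and 2.88 (2.58 to 3.22). MEF2C had 5.83, 17.3 and 0.530 CPM, a ratio of 11 (5.94 to 21.7) for A375 and 32.7 (18.9 to 61.2) for HEK293. MEF2A had 46.0, 65.4 and 26.0 CPM. All 3 were higher in both A375 and HEK293 than in HUES66. The 24 hr control, which shares the series of HEK293 but was treated with doxycycline, had CAMK2D at 29.7, MEF2C at 0.693 and MEF2A at 28.4 CPM.

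MEF2D had 43.6 CPM in A375, 17.8 in HEK293 and 18.4 in HUES66, so that A375 alone was higher (ratio to HUES66 2.37, 2.06 to 2.73). CAMK2G had 46.5, 30.6 and 50.8 CPM, with a ratio of 0.916 (0.814 to 1.03) for A375, whose interval holds 1, and of 0.602 (0.527 to 0.686) for HEK293. CAMK2B was seen above a few reads in HEK293, with 21 reads against 2 in each of the A375 total and HUES66 libraries. The median ratio of all genes was 1.03 for A375 (10th to 90th percentile 0.294 to 4.21) and 1.10 for HEK293 (0.294 to 3.23). Per median intron, CAMK2D led in A375 at 5.70 CPM, ahead of MEF2A at 3.55 and MEF2D at 3.42, whereas MEF2A led in HEK293 at 5.56 and CAMK2G in HUES66 at 2.44.

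Within A375, the cytoplasmic library held more MEF2D and less CAMK2D per read than the nuclear one, by amounts within the usual range of genes. MEF2D had 55.8 CPM in the cytoplasmic and 38.6 CPM in the nuclear library, a ratio of 1.45 (95% interval 1.26 to 1.67), and CAMK2D had 79.9 and 104 CPM, a ratio of 0.764 (0.697 to 0.839). The ratio was 1.02 (0.894 to 1.18) for MEF2A, 0.892 (0.611 to 1.33) for MEF2C and 1.11 (0.977 to 1.27) for CAMK2G, and these 3 intervals hold 1. Over 12733 genes the median ratio was 1.08 and the 10th to 90th percentiles ran from 0.196 to 2.63, so all 5 ratios lay within that range.

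Exon use was compared between the 3 lines and the A375 fractions in 216 pairs of shares with at least 20 reads each. Of these 8 differed by at least 20 percentage points, all readings of the MEF2A alpha choice, and in 0 of the 8 were the 95% intervals apart. The MEF2A downstream alpha exon took 61.4% of reads in A375 (95% interval 45.5% to 75.6%), 41.3% in HEK293 (30.1% to 53.3%) and 38% in HUES66 (28.8% to 47.8%). In the A375 fractions it took 47.1% in the nuclear (29.8% to 64.9%) and 52.1% in the cytoplasmic library (42.7% to 61.5%). These intervals overlap, which is no test of the difference, and with 1 library per line none was made.

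The short exons rest on fewer reads. The MEF2D beta exon was included in 5 of 38 reads of A375, 3 of 24 of its nuclear and 9 of 129 of its cytoplasmic library, 2 of 16 reads of HEK293 and 0 of 51 of HUES66. The CAMK2G 69-nt exon was included at 100%, 93.3% and 96.2% in the A375 total, nuclear and cytoplasmic libraries, 82.4% in HEK293 and 80.6% in HUES66. Reads joining it at either end numbered 38, 27 and 101 in A375, 28 in HEK293 and 117 in HUES66. Inclusion takes the mean of its 2 junctions and so rests on fewer. The CAMK2G 63-nt exon was included at 10.5%, 18.2% and 11.8% in the A375 libraries, 0% (of 19 reads) in HEK293 and 2.15% in HUES66. The inner acceptor of the CAMK2D 38-nt exon took 19.5%, 9.76% and 17% in A375, 7.89% in HEK293 and 3.12% in HUES66. A375 stood highest in each of the last 3, with intervals that overlapped those of HEK293. MEF2C used its upstream alpha exon in HEK293 too, with 14 reads against 1 of the downstream exon.

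**Figure D5:**
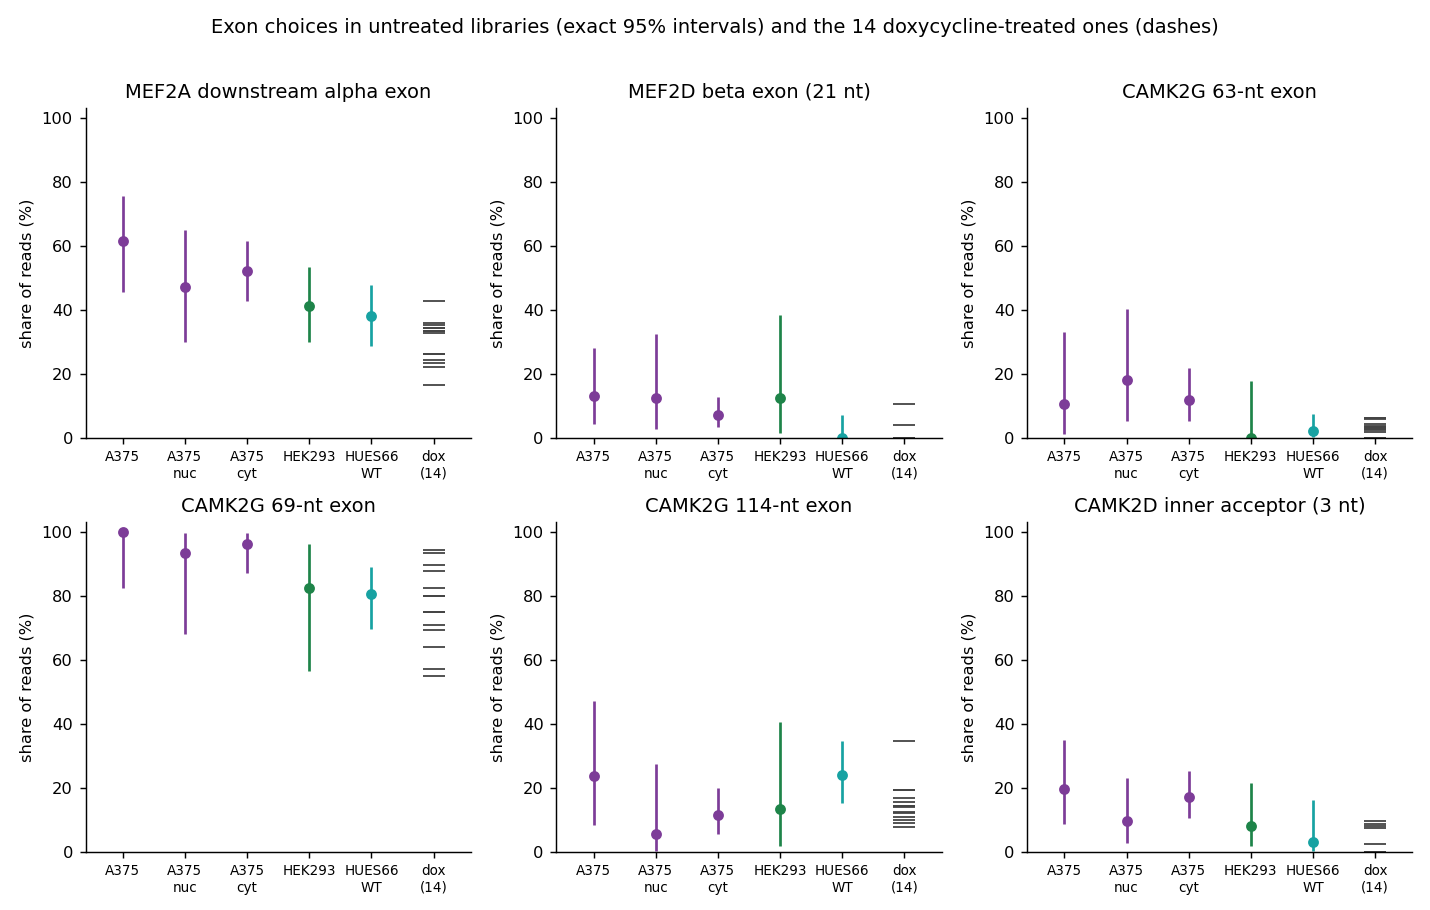
Share of junction reads (vertical axis, percent) for 6 exon choices of the family in the 3 A375 libraries, HEK293 and wild-type HUES66, as points with exact 95% binomial intervals, and in the 14 doxycycline-treated HUES66 libraries as dashes. MEF2A downstream alpha use is 61.4% in A375 total RNA against 38% in HUES66, with intervals that overlap.

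The authors' deposited tables of their own splicing comparisons, 9 in all, hold 28 to 42 events of the 6 genes each. No member event passed an adjusted p of 0.05 and 0 to 4 had an unadjusted p under 0.05, with a lowest adjusted p of 0.19. The lowest was that of a 96-nt exon of CAMK2D in the total knockdown at 48 hr, with a difference of 0.322 (control minus knockdown). Against the same 48 hr control its difference was 0.153 in the N-short and 0.201 in the N-long knockdown. Over all events of those tables, 1 to 57 passed.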

How the data were processed

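Ribosomal RNA-depleted total RNA was sequenced, per the labels' protocols. The authors aligned reads with STAR 2.7.1 and SAMtools 1.9 to hg38, per the submitters' processing notes, with no roles given. They deposited, per library, the raw count of reads that support each splice junction, and 9 comparison tables with an inclusion difference, a p-value and an adjusted p-value per event. The sign of that deposited difference is control minus knockdown: it ran against the inclusion computed here (r -0.711 to -0.609 across exons). The 69 per-library columns of these tables were not used.

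Junctions were matched exactly to GENCODE 29 introns, and introns shared by genes were left out of gene sums. The files give each junction a strand. CPM are reads per 1000000 reads on annotated junctions of single genes. Inclusion reads are the rounded mean of an exon's 2 junctions. Exons, pairs and splice site choices needed a mean of 20 reads per library, a pooled share of 2% to 98% and, for exons, at most 1000 nt; genes had to pass edgeR's filterByExpr. R 4.3.3, edgeR 4.0.16 (quasi-likelihood test, TMM), limma 3.58.1 and DESeq2 1.42.0 were used, with Python 3.11.15. The 14 doxycycline-treated libraries entered 1 fit with terms for library set and knockdown, p-values were adjusted by Benjamini-Hochberg over all features of a contrast at 0.05, and the steps were tested on simulated data. A log2 change of 1 in gene reads was recovered in 84.5% of changed genes for total knockdown and 88.5% for 96 against 48 hr. A change of 2 in log2 odds was recovered for 27.5% and 43% of cassette exons and 50% and 82.5% of pairs. Splice site choices were not simulated. Library sets pair the samples: deviations from group means correlated at a median of 0.562 (0.327 to 0.766) over 18 same-set pairs, against -0.179 over 55 pairs from different sets. Intervals at 95% are exact Poisson or binomial ones for single libraries, and a count of 0 was given the limit of 3 reads.

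The members and lists were chosen with earlier results of these data known. Named are the 6 genes, RBFOX genes, and alpha, beta and linker exons. Choices are named with an adjusted p under 0.05 in any contrast, or at least 20 points apart between lines with separate intervals. List genes past the same adjusted p are named, those with the largest difference first, at most 10 per paragraph. HDAC4 and the CAMK2D 96-nt exon were added after their values were seen. Marker lists held 7 stem cell, 6 melanocyte-lineage, 7 muscle, 6 neuron and 5 mesoderm and endoderm genes. The sequences of the MEF2A alpha exons and some of the listed genes are not reported here.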

Additional observations from a re-analysis of the deposited data

Results flagged for a closer look

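The share of the MEF2A downstream alpha exon in the N-short knockdown was 24.1% at 48 hr, apart from the other 3 libraries of that group at 33.3% to 34.3%, a gap of 0.906 of the group's range. Over 12 groups tested for a sample apart this was 1, and chance alone flags about 1 in 20. The other 48 hr libraries were also the lowest of their groups for this exon.

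Of the junctions of the family outside the annotated introns, 2 had more than 3 reads in at least 10 libraries, and both have annotated splice sites at each end. Others annotated at each end had at most 22 reads over all libraries. With 1 annotated end, the highest were 55 and 44 reads in MEF2A and 54 in CAMK2G. That of 44 reads (chr15:99671670-99674392) ends at the acceptor that the MEF2A alpha exons share, and was not counted in the alpha choice. A junction of CAMK2G (chr10:73852320-73860829) had 78 reads, in all 19 libraries with at most 9 each, and a junction of MEF2D (chr1:156483419-156500485) had 76 reads, in 18 libraries with at most 13 each. They exceed the 3 reads that a count of 0 allows in 12 and 11 libraries.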

How the results depend on the processing

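Of 20 counts of called members 17 kept their value under every alternative run, and of 390 alternatives 12 moved a count, all between 96 and 48 hr. Cassette exons went from 0 to 1 with the downstream junctions alone and ranged from 0 to 1 with a library left out. Pairs went from 1 to 0 with the upstream junctions alone and ranged from 0 to 1 with a library left out. Splice site choices went from 2 to 1 with limma, which lost the CAMK2G choice. They ranged from 0 (without the N-long library of 48 hr) to 3 with a library left out. CAMK2D stayed between -0.91 and -0.78 and called in all 20 alternatives.

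Differences not called changed sign: the MEF2A pair to -0.21 (total) and -0.24 (N-short) with the downstream junctions alone, to 0.24 (N-long) with the upstream junctions alone, and N-short to -0.083 with HUES66 WT added as control and -0.086 to 0.26 with a library left out. RBFOX2 in the N-short knockdown ran from -0.11 to 0.0025 with a library left out. Without the replicate block, which pairs libraries of a set, members called were unchanged (1 gene, 1 pair and 2 choices), and RBFOX2 in the N-long knockdown was -0.61 with an adjusted p of 0.46 (DESeq2 -0.58, adjusted p 0.0683). The causes were not tested. A mean of 50 reads left no family member to test. TMM scaling gave HEK293 ratios to HUES66 of 2.14 for MEF2A, 2.45 for CAMK2D and 0.511 for CAMK2G. The alternative of 48 and 96 hr libraries only was chosen after seeing the data. The MEF2A pair rests on 34 to 117 reads per library, which sets its precision.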
